A study of Rattus norvegicus with 64 samples.

Results

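Postsynaptic density scaffolds and the 2 neuronal subunits of calcium/calmodulin-dependent protein kinase II (CaMKII) were followed through the postnatal development of the rat entorhinal cortex. The set, chosen with earlier results of these data known, held 10 genes of the 17260 in the count files, identified by gene symbol. They were the 4 Dlg genes for the membrane-associated guanylate kinases (Dlg1 for SAP97, Dlg2 for PSD-93, Dlg3 for SAP102 and Dlg4 for PSD-95), the 3 Shank genes, Homer1, and Camk2a and Camk2b for the alpha and beta subunits of CaMKII. All 10 were detected in every library, with a lowest count of 176 (Dlg1), and all 10 passed the filter on low counts.

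Total RNA from wild-type Long Evans rats at P2, P9, P23 and P45 (age in postnatal days) had been depleted of ribosomal RNA and sequenced, with no treatment in any group. Tissue was layer II (LII) or the deep layers (LDeep, layers III to VI in the methods of the study) of the medial (MEC) or lateral (LEC) entorhinal cortex, cut out under a microscope from unstained slices. This gave 16 groups and 64 libraries. Each P2 group had 5 replicates, each P9 and P45 group 4, and each P23 group 3. No label tied a sample to an animal, so the p-values below measure only the spread between libraries, and libraries of the same rat would make those of the pooled age comparisons too small.

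The postsynaptic density is the protein meshwork under the membrane of an excitatory synapse, where glutamate receptors are held in place. The Dlg proteins bind receptors and adhesion molecules at the membrane, the Shank proteins form a deeper layer, and Homer proteins link Shank to metabotropic glutamate receptors and calcium stores. CaMKII is among the most abundant proteins there, is switched on by calcium-bound calmodulin, and is central to long-term potentiation; its alpha and beta subunits assemble into mixed holoenzymes, and the beta subunit also binds actin. In the cortex, SAP102 is known as the early Dlg protein and PSD-95 as the one that dominates mature synapses.

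Counts per library lay between 3894334 and 11439143, with a median of 7569157.5. The 8 neuron markers were present in every library, with summed levels of 4560 to 8540 CPM (counts scaled to the library total). Of the 64 libraries, 3 stood apart. In MEC LDeep P2 replicate 4 and LEC LDeep P45 replicate 4 the spread of the tested genes around their group medians (a median absolute deviation scaled to an SD) was 0.50 and 0.55 on the log2 scale, against a median of 0.152 in the other libraries. MEC LII P2 replicate 1 went against its label in its markers: the excitatory neuron markers summed to 22.3 CPM there and to 610 to 772 CPM in the other 4 libraries of the group, the inhibitory neuron markers to 1570 CPM against 254 to 665 CPM, and Slc17a7, the cortical vesicular glutamate transporter, was at 0.6 CPM against at least 237 CPM in every other library. The 665 CPM belonged to replicate 3, against 254 to 318 CPM in replicates 2, 4 and 5. Meningeal fibroblast markers summed to 32.5 and 34.3 CPM in replicates 1 and 3, against 324 to 568 CPM in replicates 2, 4 and 5. Replicate 3 was kept. Results that rest on the 3 libraries that stand apart are given with and without them, a choice made after the data were seen. In the P23 groups of 3 the median of a gene is itself 1 of the 3 values. This pulls the spread toward 0, so the measure could miss a P23 library. LEC LDeep P23 replicate 2 had a spread of 0.0764, yet lay 1.66 above its group median for Shank1 and 0.63 for Camk2a, and at it for Dlg1 and Homer1. It was kept in the results without the 3.

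Promoter windows are shown for the 3 genes that the age results turn on, Dlg1 and Camk2a, which had the largest changes with age, and Camk2b, which did not pass the test. Each window is the 250 bases before the gene start in RefSeq on GRCr8, written 5′ to 3′ on the strand of the gene. RefSeq windows were matched for 7 of the 10 members. Capitals mark 4 motifs searched on both strands, the GC box (GGGCGG or CCGCCC, overlapping matches counted), the TATA box (TATAAA or TTTATA), the cAMP response element (TGACGTCA) and the E box (CACGTG).
Dlg1 promoter, chr11:82607798-82608047, minus strand: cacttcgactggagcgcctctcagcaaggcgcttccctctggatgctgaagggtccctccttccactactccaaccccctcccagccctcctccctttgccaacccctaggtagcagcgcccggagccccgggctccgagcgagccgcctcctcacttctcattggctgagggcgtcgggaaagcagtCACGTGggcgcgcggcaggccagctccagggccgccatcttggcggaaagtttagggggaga
Camk2a promoter, chr18:56648930-56649179, plus strand: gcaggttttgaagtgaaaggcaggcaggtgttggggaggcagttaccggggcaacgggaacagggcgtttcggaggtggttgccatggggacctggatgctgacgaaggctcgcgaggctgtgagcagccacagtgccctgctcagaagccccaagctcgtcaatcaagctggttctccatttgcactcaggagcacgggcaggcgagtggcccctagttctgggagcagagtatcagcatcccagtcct
Camk2b promoter, chr14:85147945-85148194, minus strand: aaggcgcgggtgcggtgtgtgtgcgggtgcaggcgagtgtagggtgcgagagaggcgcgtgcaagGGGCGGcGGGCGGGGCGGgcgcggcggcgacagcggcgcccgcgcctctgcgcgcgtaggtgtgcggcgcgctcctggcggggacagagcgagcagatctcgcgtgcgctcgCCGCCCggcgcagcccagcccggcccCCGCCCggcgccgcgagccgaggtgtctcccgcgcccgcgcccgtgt
The Camk2b window held 47 CG pairs and had a GC content of 80.4%, the Camk2a window 10 CG pairs and 60.4%, and the Dlg1 window 17 CG pairs and 66.4%. Over all 33469 promoter windows of the same length the median was 5 CG pairs and 51.2% GC. Camk2b had 5 GC boxes and the other 2 windows had none, where 30.5% of all windows held at least 1. A single E box in the Dlg1 window was the only other match of the 3 windows, and 5.59% of all windows held that motif, 12.9% a TATA box and 1.59% a cAMP response element. These are letters in 1 annotated start window per gene. The gene counts do not tell which start was used.

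Change with age was the main pattern of the set. The ages were pooled into younger animals, P2 with P9, and older animals, P23 with P45. Between these pools 9 of the 10 members rose, and none fell. Dlg1 rose 4.13-fold (LFC 2.05 ± 0.05 SE, adjusted p = 1.3e-37) and Camk2a 4.45-fold (LFC 2.16 ± 0.10, adjusted p = 2.8e-27), where LFC is the log2 fold change and p comes from the edgeR quasi-likelihood test with Benjamini-Hochberg adjustment over 12521 genes. Homer1, Shank1, Shank3, Dlg4, Dlg2, Shank2 and Dlg3 followed with smaller LFCs. Camk2b was at an LFC of 0.00 ± 0.04 (adjusted p = 0.95). Of all genes tested 81.6% passed, and 41% passed with a higher level in older animals, so the count of members is to be read against a cortex in which most genes differed between these ages. How many of all genes had younger and older libraries without overlap was not counted. Such separation is given below only as a description of each member. In bulk tissue fewer cells of a type and less RNA per cell cannot be told apart.

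**Figure D1:**
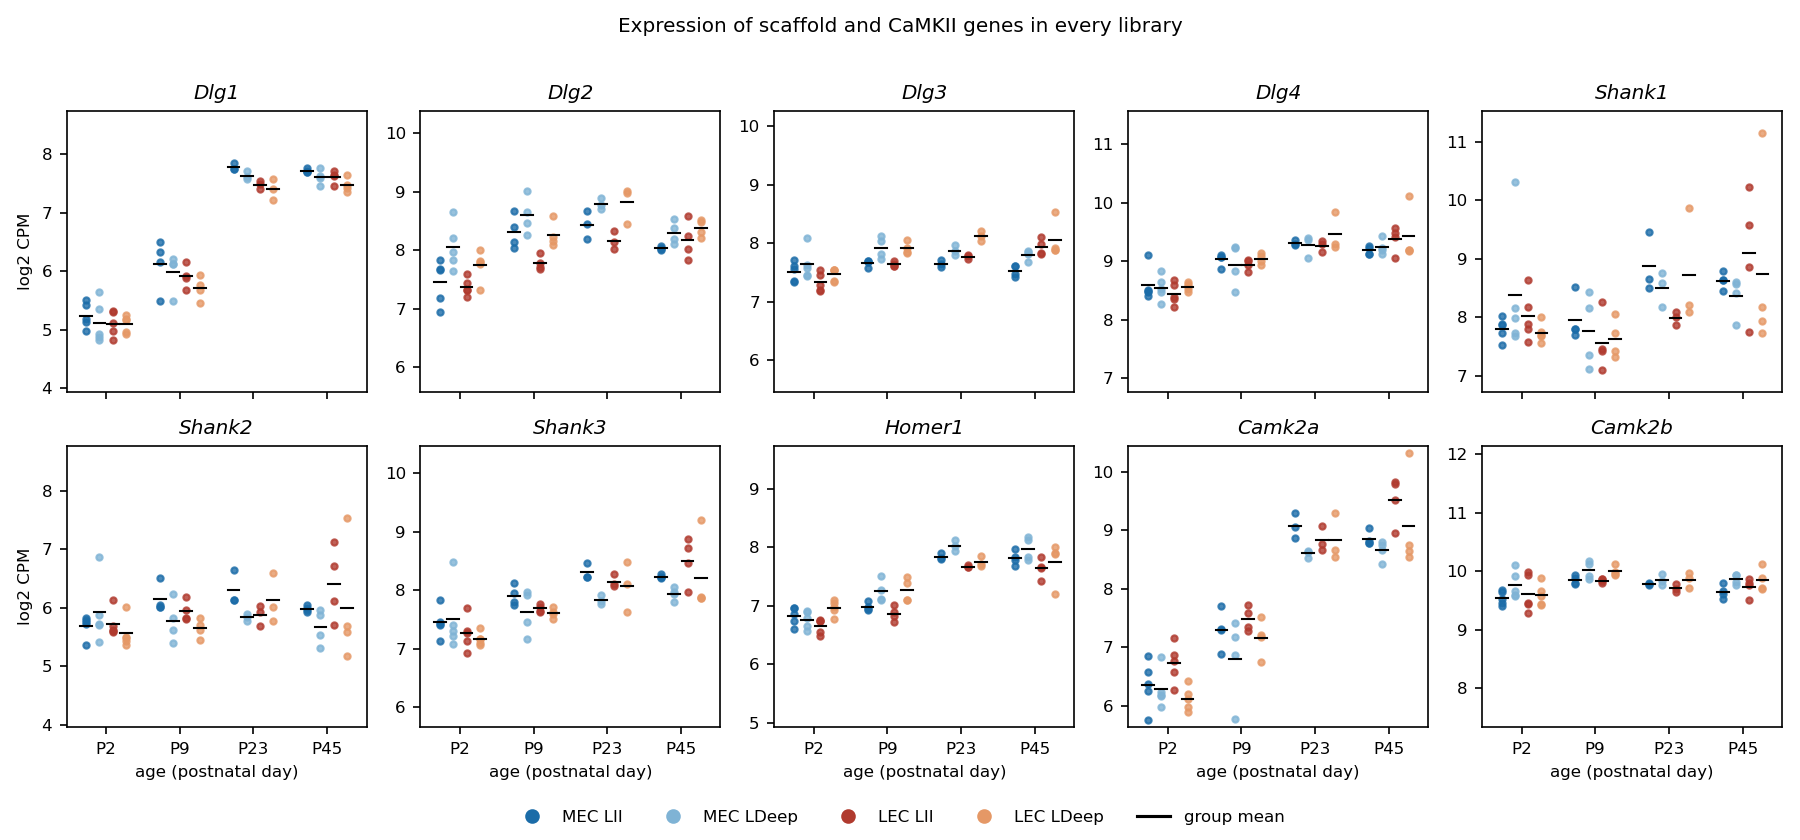
Each panel plots 1 gene, with log2 CPM on the vertical axis (a span of 4.8 log2 units in every panel, at different heights) against age in postnatal days; points are the 64 libraries, coloured by tissue, and black bars are group means. Dlg1 and Camk2a were higher in all 28 older libraries than in any of the 36 younger ones, Camk2b lay between 9.29 and 10.18 throughout, and Shank1 had single libraries far above their groups.

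Dlg1 codes for SAP97, which carries glutamate receptors along the secretory pathway as well as at synapses (chromosome 11, 72164566 to 72378983, minus strand of Rn6, 3150 exonic bases). In MEC LII its log2 CPM in the 5 libraries of P2 was 4.98, 5.42, 5.13, 5.50 and 5.18. At P9 the values there were 6.50, 6.33, 6.16 and 5.49, at P23 7.85, 7.74 and 7.75, and at P45 7.70, 7.72, 7.69 and 7.77. At P9 1 library lay within the range of P2 and the other 3 above it, and every library of P23 and P45 lay above every library of P9. Over all 4 tissues the 36 younger libraries lay between 4.82 and 6.50 (median 5.44) and the 28 older ones between 7.22 and 7.86 (median 7.62), with no overlap. The LFC was 2.05, 2.05, 2.04 and 2.04 in MEC LII, MEC LDeep, LEC LII and LEC LDeep, each ± 0.11 SE.

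Camk2a codes for the alpha subunit of CaMKII (chromosome 18, 56193978 to 56295869, plus strand, 1494 exonic bases). Younger libraries had log2 CPM values of 5.75 to 7.73 (median 6.80) and older ones of 8.42 to 10.32 (median 8.79), again with no overlap. In LEC LII the libraries of P2 were at 6.27, 6.87, 6.58, 7.15 and 6.77, those of P9 at 7.73, 7.58, 7.28 and 7.35, those of P23 at 9.07, 8.77 and 8.67, and those of P45 at 9.51, 9.83, 8.95 and 9.79. Every P9 library of that tissue was above every P2 library. By tissue the LFC with age ran from 2.02 ± 0.19 (MEC LDeep) to 2.41 ± 0.20 (LEC LDeep).

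Camk2b (chromosome 14, 86208895 to 86297652, minus strand, 4106 exonic bases) had a median log2 CPM of 9.82 in younger and 9.78 in older libraries, and the ranges of 9.29 to 10.18 and 9.51 to 10.13 overlapped almost fully. It was not flat throughout: it rose from P2 to P9 by an LFC of 0.29 ± 0.06 (adjusted p = 1.2e-05). From P9 to P23 the LFC was -0.13 ± 0.06 (adjusted p = 0.067, edgeR), and it passed as a fall without the 3 libraries that stand apart (-0.14 ± 0.06, adjusted p = 0.028) and with limma voom and quantile normalization (-0.29, adjusted p = 1.1e-06). With the limma voom and quantile normalization of the study its age LFC was -0.19 (adjusted p = 6.4e-07), so the direction of its pooled change depends on the scaling.

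The ratio of Camk2a to Camk2b within a library needs no scaling between libraries. Its log2 value had a median of -2.87 in the 9 younger and -0.74 in the 7 older libraries of MEC LII. In MEC LDeep the medians were -3.40 and -1.27, in LEC LII -2.59 and -0.56, and in LEC LDeep -3.39 and -1.06. The ranges of younger and older libraries did not overlap in any tissue. The mean log2 ratio rose by 2.15, 2.15, 2.16 and 2.30 in these tissues (exact two-sided permutation test, p = 8.7e-05 in each, the smallest the 11440 regroupings allow; adjusted p = 0.00017 over 16 ratio tests). LEC LDeep P45 replicate 4 had the highest ratio of its tissue, 0.19, and without the 3 libraries the rise there was 2.12.

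**Figure D2:**
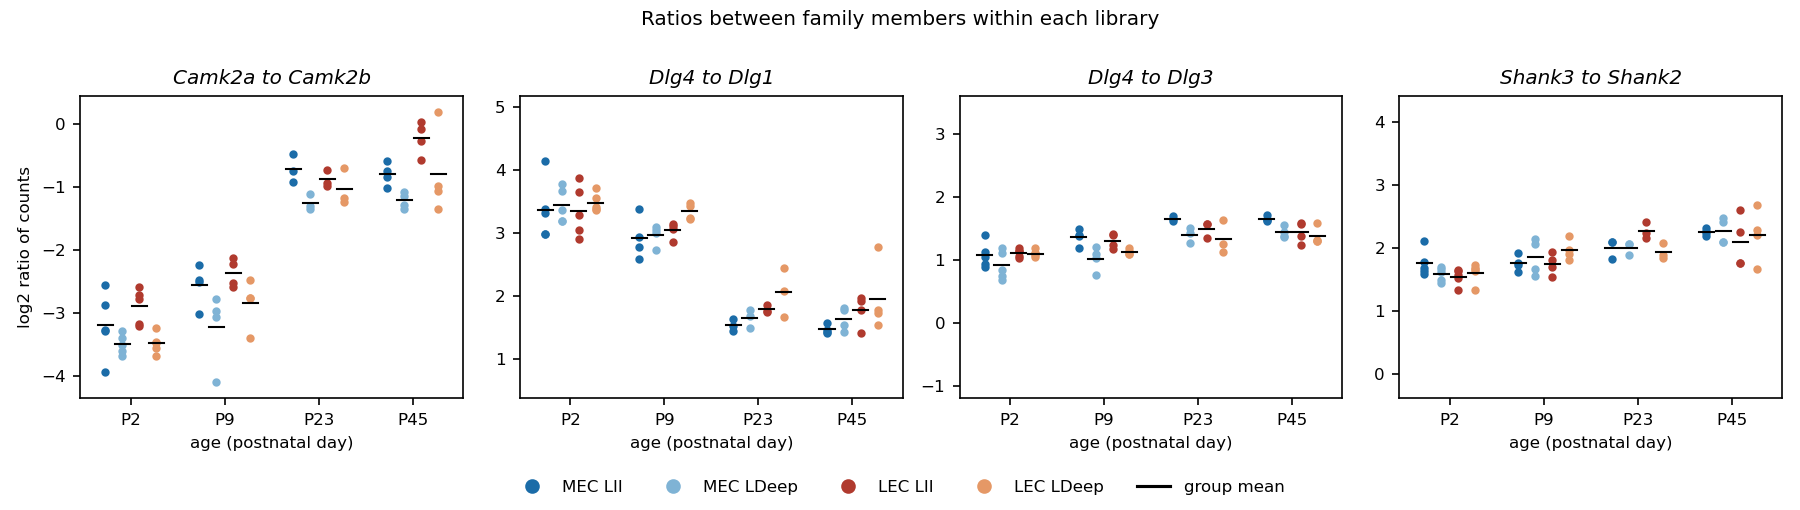
The 4 panels plot the log2 ratio of the counts of 2 members within each library against age in postnatal days, on axes of equal span; points are libraries, coloured by tissue, and black bars are group means. The Camk2a to Camk2b ratio rises and the Dlg4 to Dlg1 ratio falls between P9 and P23 in each tissue with no overlap of younger and older libraries, while the other 2 ratios move by less.

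Per exonic length the order of the CaMKII genes turned over. At P2 Camk2a made up a median of 22% of the summed CPM per kilobase of the pair (15.2 to 31.9% over 20 libraries), at P9 30.2%, at P23 58.7% and at P45 59.4% (52.1 to 75.8% over 16 libraries). The P2 and P45 ranges did not overlap. A level per kilobase rests on the annotated exons, 1494 bases for Camk2a and 4106 for Camk2b, and reads outside them were not counted.

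Among the Dlg genes Dlg4 stayed the most abundant per kilobase at each age by median, with 47.8% of the family at P2 and 47.6% at P45. Dlg1 went from 4.45% at P2 (3.41 to 6.25%) to 14.2% at P45 (8.13 to 17.4%), ranges that did not overlap. Dlg3 went from 19.2% to 14.3%, so that Dlg1 and Dlg3, far apart at P2, overlapped at P45. Dlg2 was at 28.6% and 22.9%.

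**Figure D3:**
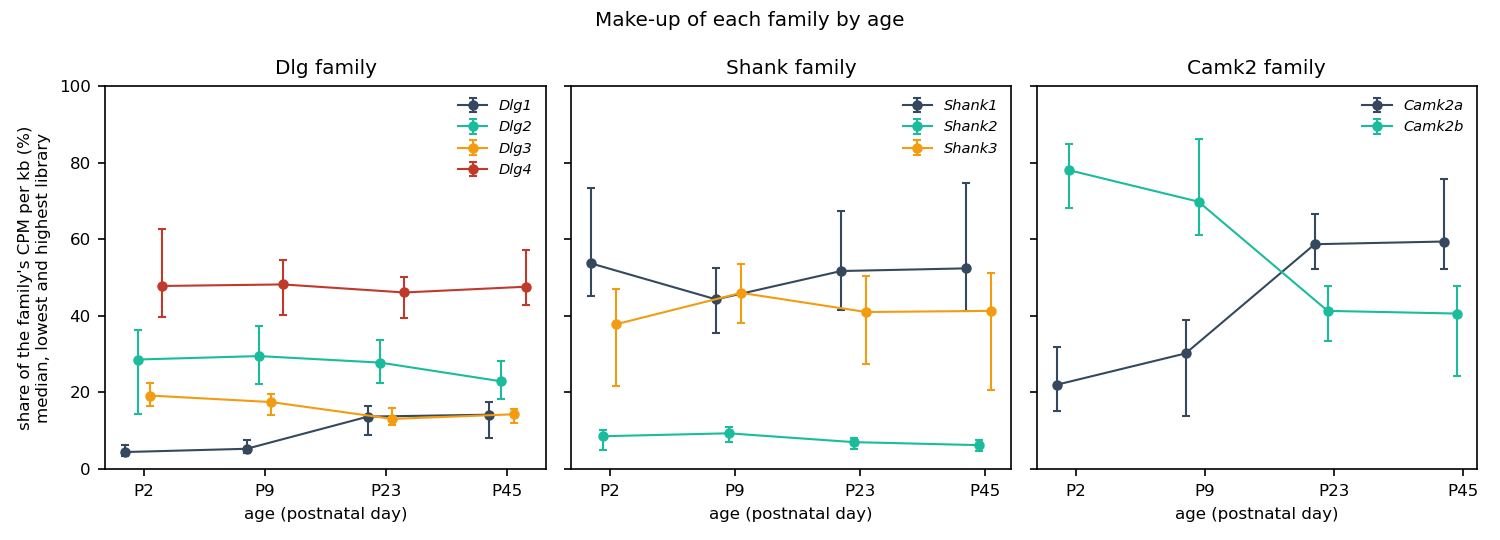
Each panel plots 1 gene family, with the share of the family's CPM per kilobase in percent against age; points are medians over the libraries of an age and bars reach from the lowest to the highest library. Camk2a passes Camk2b between P9 and P23, Dlg1 rises from a median of 4.45% to 14.2%, and the Shank shares overlap across ages.

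Dlg4 codes for PSD-95, the scaffold that anchors AMPA and NMDA receptor complexes (chromosome 10, 56627547 to 56653601, plus strand, 3068 exonic bases). Its log2 CPM was 8.21 to 9.24 (median 8.67) in younger and 9.05 to 10.12 (median 9.26) in older libraries, with an LFC of 0.56 ± 0.06 (adjusted p = 3.6e-13, edgeR). In MEC LII, LEC LII and LEC LDeep younger and older libraries did not overlap, and in MEC LDeep they did. Its rise was shallower than that of Dlg1, and the mean log2 ratio of Dlg4 to Dlg1 fell by 1.67, 1.59, 1.44 and 1.42 in MEC LII, MEC LDeep, LEC LII and LEC LDeep (exact permutation test, adjusted p = 0.00017 in each). Against Dlg3, which codes for SAP102, the ratio of Dlg4 rose by 0.45, 0.47, 0.27 and 0.25 on the log2 scale in the same order of tissues (exact permutation tests, adjusted p = 0.00051, 0.00031, 0.0031 and 0.00051).

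Dlg2 codes for PSD-93, a close relative of PSD-95 (chromosome 1, 155147804 to 157269740, plus strand, 2986 exonic bases). It rose by an LFC of 0.43 ± 0.06 between younger and older animals, with its highest median at P23. Its median log2 CPM climbed from 7.67 (P2) through 8.19 (P9) to 8.57 (P23), and at P45 it was 8.21. It was the only member called between P23 and P45, where it fell by an LFC of 0.33 (SE 0.10, adjusted p = 0.033, edgeR), a comparison in which 3.85% of all genes passed. When counts of the same replicate number were summed, the LFC of -0.34 no longer passed (adjusted p = 0.27). The call was lost as well with a random replicate block (limma voom, adjusted p = 0.13). In edgeR fits it was lost without P23 replicate 1, 2 or 3 (adjusted p = 0.076, 0.24 and 0.075). Leaving out P45 replicate 1 or 3 also lost it (adjusted p = 0.15 and 0.1).

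Homer1 tethers Shank and metabotropic glutamate receptors (chromosome 2, 22910137 to 23012137, plus strand, 4049 exonic bases). It rose by an LFC of 0.86 ± 0.04 (adjusted p = 3.5e-26, edgeR). In MEC LDeep the younger libraries lay at 6.58 to 7.51 and the older ones at 7.78 to 8.18. Younger and older libraries overlapped only in LEC LDeep, where P45 replicate 4, which stands apart, was at 7.21 and the other 3 P45 libraries at 7.89 or above.

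The Shank genes code for the master scaffolds that join the receptor layer to actin. Shank3 (chromosome 7, 130474288 to 130534678, plus strand, 7179 exonic bases) rose by an LFC of 0.63 ± 0.08 (adjusted p = 3.1e-10). Shank1 (chromosome 1, 100297157 to 100344377, plus strand, 7577 exonic bases) rose by 0.85 ± 0.18 (adjusted p = 2.1e-05) and Shank2 (chromosome 1, 217173199 to 217592403, plus strand, 10065 exonic bases) by 0.27 ± 0.10 (adjusted p = 0.017, all edgeR). Without the 3 libraries these LFCs were 0.62 ± 0.05, 0.75 ± 0.12 and 0.19 ± 0.07, all still past the test. The Shank2 call was the least firm of these. It was lost with limma voom and quantile normalization (LFC 0.19, adjusted p = 0.058), with a random replicate block (0.22, adjusted p = 0.064), with counts summed by replicate number (0.24, adjusted p = 0.09), without P23 replicate 2 (0.19, adjusted p = 0.12) and without P45 replicate 4 (0.12, adjusted p = 0.17). The log2 ratio of Shank3 to Shank2 rose by 0.39, 0.45, 0.54 and 0.33 in MEC LII, MEC LDeep, LEC LII and LEC LDeep (exact permutation tests, adjusted p = 0.0016, 0.0034, 0.0012 and 0.038), and the value for LEC LDeep did not pass when the medians were compared (adjusted p = 0.059). With single replicates left out, the LEC LDeep rise did not pass in 9 of 16 settings.

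Single libraries weighed most on Shank1. Its log2 CPM in LEC LDeep P45 was 7.72, 8.17, 7.94 and, in replicate 4, 11.14. In MEC LDeep P2 it was 8.15, 7.73, 7.68, 10.31 (replicate 4) and 7.98. In LEC LII P45 the 4 libraries were spread over 8.86, 10.23, 7.74 and 9.57. The same LEC LDeep P45 library was 1.91 above its group median for Shank2, 1.33 for Shank3 and 1.62 for Camk2a, and 0.68 below it for Homer1. The rise of Shank1 in LEC LDeep was accordingly 1.56 ± 0.36 with and 0.77 ± 0.24 without the libraries that stand apart. Shank2 in LEC LDeep went from 0.62 ± 0.21 (adjusted p = 0.0074) with them to 0.23 ± 0.15 (adjusted p = 0.16) without them. For Shank1 in MEC LDeep the LFC was 0.13 ± 0.35 (adjusted p = 0.76) with them and 0.59 ± 0.24 (adjusted p = 0.026) without them. These 2 libraries held 4922946 and 4935879 counts; the part of depth in the result was not tested.

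The steps between adjacent ages place most of the change before P23. From P2 to P9, where 63.4% of all genes passed, 8 members rose, Camk2a (LFC 0.83 ± 0.13) and Dlg1 (0.80 ± 0.07) by most, and Shank1 (-0.32 ± 0.24) and Shank2 (0.14 ± 0.14) did not pass. From P9 to P23, where 64.6% passed, 7 members rose: Dlg1 (1.63 ± 0.08), Camk2a (1.62 ± 0.14), Shank1 (0.82 ± 0.27), Homer1 (0.73 ± 0.06), Shank3 (0.38 ± 0.12), Dlg4 (0.33 ± 0.08) and Dlg2 (0.31 ± 0.10). Dlg4 lost that call with limma voom and quantile normalization (LFC 0.13). Without P23 replicate 2 Shank1 (0.47, adjusted p = 0.17), Shank3 (0.28, adjusted p = 0.076) and Dlg2 (0.22, adjusted p = 0.083) lost it. Dlg3, Shank2 and Camk2b did not pass in that step with all libraries. From P23 to P45 the other 9 members did not pass, with LFCs of -0.02 to 0.38.

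**Figure D4:**
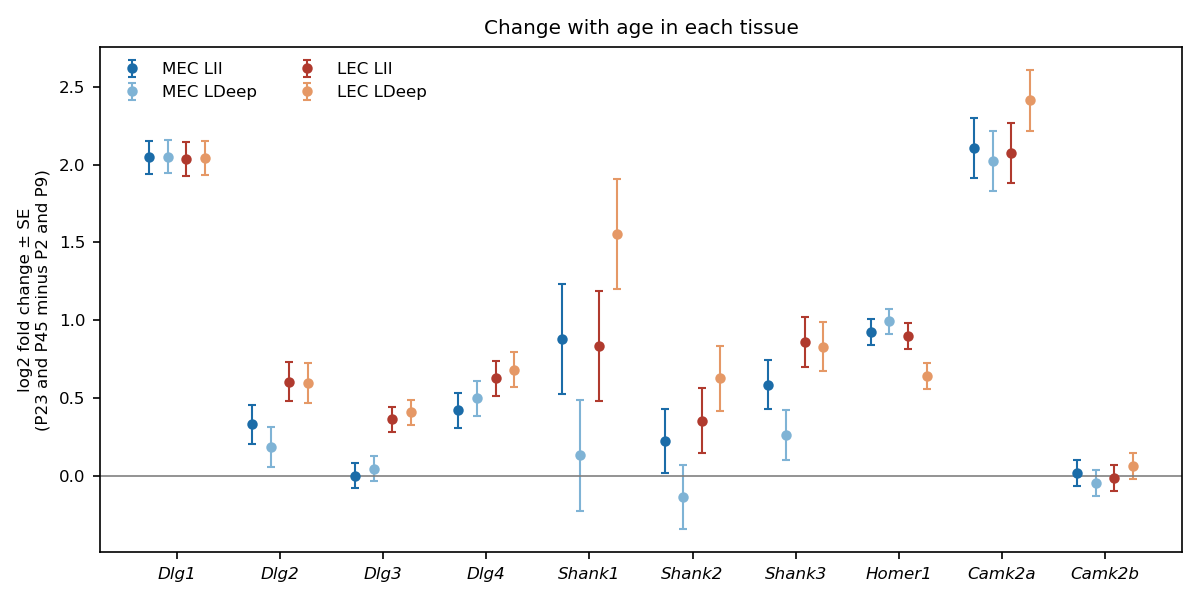
The vertical axis gives the log2 fold change of P23 and P45 against P2 and P9, with its standard error, for each member on the horizontal axis; points are the 4 tissues. Dlg1 and Camk2a lie near 2 or above in each tissue, Camk2b near 0, and Dlg3 is at -0.00 and 0.04 in the MEC and at 0.36 and 0.41 in the LEC.

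Within single tissues 28 of the 40 tests of age passed, all of them rises. In MEC LII 7 members passed (66.5% of all genes), in MEC LDeep 4 (66.2%), in LEC LII 8 (62.7%) and in LEC LDeep 9 (64.5%). Dlg1, Dlg4, Homer1 and Camk2a passed in each of the 4 tissues. In MEC LDeep 3 further members, Dlg2 (LFC 0.28), Shank1 (0.59) and Shank3 (0.44), passed only when the libraries that stand apart were left out. In MEC LII Dlg2 went the other way, from 0.33 ± 0.13 (adjusted p = 0.019) with all libraries to 0.23 ± 0.12 (adjusted p = 0.082) without the 3. That Dlg2 call was also lost without any single replicate of P45 (edgeR, adjusted p = 0.053 to 0.067). Leaving out P2 replicate 1, P9 replicate 3 or 4, or P23 replicate 1 or 2 lost it too (edgeR, adjusted p = 0.053 to 0.15). The Shank1 call in LEC LII (edgeR, adjusted p = 0.036) was lost with limma voom and quantile normalization (adjusted p = 0.064). It was also lost in edgeR with the region alone (adjusted p = 0.066) and without P45 replicate 2 (LFC 0.57, adjusted p = 0.16). Leaving out any single replicate of P23 lost it too, as did P2 replicate 1, 3 or 5. The same held for P9 replicate 1, 2 or 3 (edgeR, adjusted p = 0.053 to 0.081 over these P2, P9 and P23 replicates). In MEC LII Shank1 lost its call without P9 replicate 4 (adjusted p = 0.059) or P23 replicate 2 (adjusted p = 0.11).

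Of the members, Dlg3 alone passed the test of a different age change in MEC and LEC. In that edgeR test Dlg2 (LFC -0.34, adjusted p = 0.12), Shank3 (-0.42, adjusted p = 0.13), Homer1 (0.19, adjusted p = 0.22) and Shank2 (-0.45, adjusted p = 0.26) had unadjusted p-values under 0.05 and did not pass after adjustment. SAP102, its product, is a scaffold of young synapses (chromosome X, 70596577 to 70647298, plus strand, 3737 exonic bases). In LEC LII the log2 CPM at P2 was 7.18, 7.29, 7.19, 7.54 and 7.45, and at P45 7.83, 7.99, 7.81 and 8.10, so the older libraries lay above the younger ones. In MEC LII the libraries of P2 were at 7.71, 7.35, 7.61, 7.34 and 7.56 and those of P45 at 7.42, 7.48, 7.61 and 7.61, with overlapping ranges. Its LFC with age was -0.00 ± 0.08 and 0.04 ± 0.08 in MEC LII and MEC LDeep, and 0.36 ± 0.08 and 0.41 ± 0.08 in LEC LII and LEC LDeep. The difference between regions, MEC minus LEC, was -0.36 ± 0.08 (adjusted p = 0.0035, edgeR interaction test, 4.38% of all genes passing). Without the 3 libraries it was -0.27 ± 0.06 (adjusted p = 0.0033). Of the oligodendrocyte markers 5 of 8 passed the same interaction test, all with the larger rise in the MEC, and their part in the Dlg3 result was not tested.

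Between LII and LDeep 3 members passed in edgeR in the MEC and 3 in the LEC, all lower in LII, where 40.8% and 38.6% of all genes passed (19.9% and 21.2% with the lower level in LII). Dlg2 was lower in LII by an LFC of -0.38 ± 0.09 in the MEC (adjusted p = 0.00052) and -0.43 ± 0.09 in the LEC (adjusted p = 9.8e-05). Set side by side by age and replicate number, LII lay below LDeep for 16 of 16 numbers in the MEC and 15 of 16 in the LEC. Dlg3 was lower in LII by -0.23 ± 0.06 in the MEC (adjusted p = 0.0013) and -0.22 ± 0.06 in the LEC (adjusted p = 0.0015). Camk2b passed in the MEC (-0.17 ± 0.06, adjusted p = 0.015) and Homer1 in the LEC (-0.23 ± 0.06, adjusted p = 0.0011). In the other region Camk2b was at -0.10 ± 0.06 and Homer1 at -0.14 ± 0.06. With limma voom and quantile normalization Camk2b in the MEC (-0.08), and Dlg3 (-0.09) and Homer1 (-0.11) in the LEC, did not pass. In that fit, with all 64 libraries, Camk2a, Shank3 and Dlg1 passed as higher in LII in both regions. Camk2a was at 0.38 (adjusted p = 0.013) in the MEC and 0.47 (adjusted p = 0.0023) in the LEC. Shank3 was at 0.34 (adjusted p = 0.0039) and 0.26 (adjusted p = 0.031), and Dlg1 at 0.20 (adjusted p = 0.029) and 0.19 (adjusted p = 0.048).

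**Figure D5:**
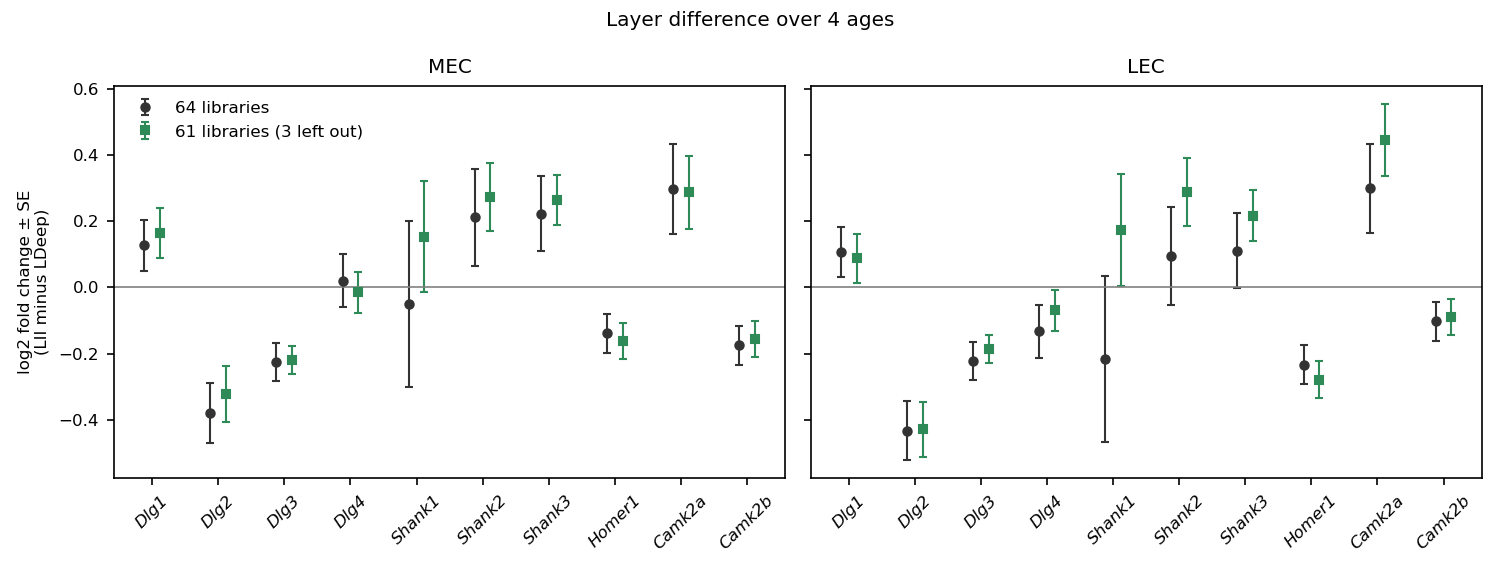
Panels plot, for MEC and LEC, the log2 fold change of LII against LDeep over the 4 ages with its standard error for each member; circles use all 64 libraries and squares the 61 left without the 3 that stand apart. Dlg2 and Dlg3 lie below 0 in both regions, Camk2a, Shank2 and Shank3 lie above 0, and the standard errors of the Shank genes and Camk2a are shorter with 61 libraries.

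With 61 libraries 7 members passed in the MEC and 6 in the LEC (48.2% and 45.3% of all genes), and they fell into opposite directions. Camk2a was then higher in LII by 0.29 ± 0.11 in the MEC (adjusted p = 0.027) and 0.45 ± 0.11 in the LEC (adjusted p = 0.00073), against 0.30 ± 0.14 (adjusted p = 0.074) and 0.30 ± 0.14 (adjusted p = 0.075) with all libraries. Shank3 was higher by 0.27 ± 0.08 in the MEC and 0.22 ± 0.08 in the LEC, and Shank2 by 0.27 ± 0.10 and 0.29 ± 0.10. Dlg2, Dlg3 and Homer1 were lower in LII in both regions. Camk2a was higher in LII for 14 of 16 numbers in the MEC and 12 of 16 in the LEC. With all 64 libraries Camk2a also passed in both regions under a fixed replicate block (LFC 0.31, adjusted p = 0.035 in the MEC; 0.33, adjusted p = 0.024 in the LEC).

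With all libraries the edgeR layer LFCs were positive for Camk2a and negative for Camk2b in both regions, but only Camk2b in the MEC passed. Camk2b in the LEC (-0.10, adjusted p = 0.17, edgeR) did not pass. Camk2a did not pass in edgeR in the MEC (0.30, adjusted p = 0.074) or the LEC (0.30, adjusted p = 0.075). It passed in both with limma voom and quantile normalization. Camk2b in the LEC did not pass without the 3 libraries that stand apart either. Opposite layer differences of the subunits were therefore not shown in the LEC. Markers of other cells differed between the layers as well. Meningeal fibroblast markers were higher in LII for 7 of 8 genes in each region (the other was lower in the MEC and did not pass in the LEC), with summed levels of 32.5 to 679 CPM in MEC LII against 45.7 to 482 CPM in MEC LDeep, and 361 to 822 CPM in LEC LII against 21.4 to 234 CPM in LEC LDeep. All 6 endothelial markers and 6 of 7 astrocyte markers were higher in LII in both regions, and of the 8 oligodendrocyte markers 5 were lower in the MEC, and 4 lower and 1 higher in the LEC. Of the 6 excitatory neuron markers 3 were lower and 1 higher in LII in each region. Of the 8 neuron markers 2 were lower in LII in the MEC and 5 in the LEC, and none higher. Their part in the layer results was not tested.

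At single ages 5 of 80 layer tests passed, all lower in LII. In the MEC Dlg2 passed at P2 (LFC -0.61 ± 0.16, adjusted p = 0.0097; 9.23% of all genes), and no member passed at P9, P23 or P45 (17.7%, 16.5% and 14.8%). Without MEC LII P2 replicate 1, where Dlg2 was at 6.94 against 7.19 to 7.84 in the rest of its group, and the 2 other libraries, the Dlg2 difference at P2 did not pass (-0.30 ± 0.16, adjusted p = 0.33). Dlg3 then passed as lower in LII in the MEC at P9 (-0.27 ± 0.08, adjusted p = 0.015), P23 (-0.26 ± 0.10, adjusted p = 0.039) and P45 (-0.32 ± 0.08, adjusted p = 0.004), and in the LEC at P9 (-0.27 ± 0.08, adjusted p = 0.015) and P23 (-0.39 ± 0.10, adjusted p = 0.0027). In the LEC Homer1 passed at P2 (-0.31 ± 0.10, adjusted p = 0.039; 12.1%) and at P9 (-0.41 ± 0.12, adjusted p = 0.0085; 15.5%). Dlg2 passed in the LEC at P9 (-0.49 ± 0.18, adjusted p = 0.049) and at P23 (-0.67 ± 0.21, adjusted p = 0.024; 11.3%), and no member passed there at P45 (13.3%). With DESeq2 the calls of Homer1 at P2 and Dlg2 at P9 in the LEC were lost (adjusted p = 0.071 for each). In edgeR both were also lost with RLE size factors, no filter, or at least 10 counts in every sample. Homer1 at P2 was lost without any single replicate of P23 or P45 (edgeR, adjusted p = 0.051 to 0.12). Leaving out P2 replicate 1, 2, 4 or 5, or P9 replicate 2, 3 or 4, lost it too. Dlg2 at P9 was lost without any single replicate of P23 (edgeR, adjusted p = 0.064 to 0.11). It was lost as well without P2 replicate 1, 2 or 5, P9 replicate 1, 2 or 3, or P45 replicate 1, 2 or 3. With limma voom and quantile normalization all 4 of the LEC calls were lost (adjusted p = 0.22 and 0.13 for Homer1 at P2 and P9, 0.15 and 0.12 for Dlg2 at P9 and P23). At P45 in the LEC, leaving out the libraries that stand apart turned Shank1 from an LFC of -0.18 ± 0.49 to 1.38 ± 0.36 in favour of LII (adjusted p = 0.0037), and Camk2a (0.88 ± 0.23), Shank2 (0.99 ± 0.22) and Shank3 (0.64 ± 0.16) then also passed as higher in LII and Homer1 (-0.31 ± 0.11) as lower. Over all ages and both regions 15 of the 80 tests passed with 61 libraries.

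Layer differences were not shown to depend on age or region. In the layer by age test no member passed (8.8% of all genes did), with LFCs of -0.13 to 0.18, and none passed in the layer by region test (1.25%), with LFCs of -0.07 to 0.17.

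Levels in the MEC and LEC were compared as means over all ages, and a test not passed does not show that the regions were alike. Such means leave out differences that change with age, such as that of Dlg3. Between MEC and LEC no member passed in LII (12.6% of all genes) or in LDeep (5.78%) with edgeR, where 3 members (Dlg1, Dlg2 and Homer1) had an unadjusted p under 0.05 in LII and 1 (Dlg1) in LDeep. DESeq2 made 0 calls in either layer. Dlg1 and Homer1 came nearest in LII, at LFCs of 0.20 ± 0.08 (adjusted p = 0.085) and 0.16 ± 0.06 (adjusted p = 0.06), each higher in the MEC for 14 of 16 numbers, and both passed under a fixed replicate block (adjusted p = 0.035 and 0.034). Both passed with 61 libraries (Dlg1 0.21 ± 0.07, adjusted p = 0.044; Homer1 0.16 ± 0.06, adjusted p = 0.041; 15.8% of all genes), and none passed in LDeep (7.44%).

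The partners of these genes were read from 3 lists. The counts in each list are to be read against the share of all genes that passed. With age that share was 81.6% (41% with a rise). Between layers it was 40.8% in the MEC and 38.6% in the LEC, and between regions 12.6% in LII and 5.78% in LDeep. Of 24 other scaffolds 12 rose and 8 fell with age (median LFC 0.24, against 0.01 over all genes). The largest rises were Baiap2 (1.60 ± 0.06), which codes for the Shank-binding actin regulator IRSp53, and Dlgap1 (1.38 ± 0.04), which joins PSD-95 to Shank. Grip2 (-1.32 ± 0.10), an AMPA receptor binding scaffold, and Lin7c (-1.31 ± 0.06) fell most. Between layers 5 of the 24 were higher and 4 lower in LII in the MEC, and 3 higher and 5 lower in the LEC. Tanc1 (0.68 ± 0.17 and 1.23 ± 0.17) and Homer3 (0.63 ± 0.16 and 0.70 ± 0.16) led in LII, and Grip1 (-0.41 ± 0.06 and -0.51 ± 0.06) and Grip2 (-0.42 ± 0.14 and -0.53 ± 0.14) in LDeep, in MEC and LEC.

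Among 20 genes of calmodulin signalling 17 rose and 2 fell with age (median LFC 0.50). Camk2n1, an inhibitor of CaMKII, rose most (2.73 ± 0.07), followed by Camkk1, a kinase that activates other CaM kinases (1.68 ± 0.04). Its relative Camk2n2 (-0.18 ± 0.06) and Camk1 (-0.17 ± 0.07) fell. In the MEC 5 were higher and 7 lower in LII, with Camk2d (0.77 ± 0.08) and Prkca (0.70 ± 0.09) at one end and the calmodulin binders Pcp4 (-1.13 ± 0.13) and Nrgn (-0.87 ± 0.17) at the other. In the LEC 3 were higher, among them Prkca (0.34 ± 0.09) and Camk2n2 (0.33 ± 0.09), and 9 lower, with Pcp4 (-1.21 ± 0.13) and Camk4 (-0.43 ± 0.10) at the low end. MEC and LEC differed in LII for 10 of these genes, 6 higher and 4 lower in the MEC, where Pcp4 (0.94 ± 0.13) and Prkca (0.48 ± 0.09) were highest and Nrgn (-0.92 ± 0.18) and Camk1 (-0.48 ± 0.10) lowest. In LDeep 2 were higher in the MEC, Pcp4 (0.86 ± 0.13) and Camkk2 (0.30 ± 0.09), and 1 was lower, Camk2d (-0.52 ± 0.08).

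Spine actin and GTPase genes were tested for 16 of 20. With age 13 rose and 3 fell (median LFC 0.66). Arc, the activity-regulated cytoskeleton gene, rose by 3.49 ± 0.12 and Synpo, which marks the spine apparatus, by 2.10 ± 0.10. Dbn1 (-1.31 ± 0.06), which codes for drebrin, and Arhgef7 (-0.48 ± 0.05) fell most. In the MEC 1 was higher in LII, Ppp1r9b (0.19 ± 0.05), and 4 were lower, led by Synpo (-0.55 ± 0.14) and Actn2 (-0.54 ± 0.12). In the LEC 1 was higher, Tiam1 (0.30 ± 0.10), and 6 were lower, led by Actn2 (-0.49 ± 0.13) and Ppp1r9a (-0.45 ± 0.08). Between regions 2 other scaffolds in LII were lower and 3 higher in the MEC, and 4 lower in LDeep, while the spine list had 2 higher and 1 lower in LII and 1 of each in LDeep.

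Markers of cell types moved with age beside the members. The 8 oligodendrocyte markers all rose, from summed levels of 117 to 915 CPM in younger to 835 to 16800 CPM in older libraries. All 7 microglia markers rose, and of the 7 astrocyte markers 6 rose and 1 fell, with sums going from 553 to 3830 CPM to 2420 to 5120 CPM. Of the neuron markers 5 rose and 2 fell, and their sum was 5860 to 8540 CPM in younger and 4560 to 7520 CPM in older libraries. Of the 6 excitatory neuron markers 2 rose and 3 fell, while their sum went from 22.3 to 1560 CPM in younger to 1460 to 2600 CPM in older libraries. Of 7 inhibitory ones 4 rose and 2 fell, of 6 endothelial ones 3 rose and 1 fell, and of 8 meningeal ones 2 rose and none fell. The part of cell composition in the changes of the members was not tested.

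The genes closest to each member in pattern were ranked by Pearson's r over the 16 group means of log2 CPM, as a description, since all genes share the libraries and the 4 ages. Dlg1 was closest to Kcnab2 (r = 0.996), Pvalb (0.995) and Prex2 (0.994); Pvalb, a calcium-binding protein of a class of interneurons, is also among the inhibitory neuron markers. For Camk2a the nearest were Tmod1, Pgbd5 and Anxa11 (0.990, 0.990 and 0.987), for Homer1 Plxnb3, Fnip1 and Ppp3ca (0.989, 0.986 and 0.984), and for Dlg4 Syp, RGD1309104 and Herc3 (0.976, 0.976 and 0.975). Camk2b had no neighbour above 0.904 (Kcnk15, then Ywhab and Reep5), Shank2 none above 0.899 (Lcp2) and Dlg3 none above 0.913 (Atp2b4, then Tac1 and Klc1). Dlg2 was closest to St3gal5 (0.947), Shank1 to Wipf2 (0.964) and Shank3 to Hk2 (0.960).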

How the data were processed

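Ribosome-depleted, stranded RNA of 64 tissue samples had been sequenced in pairs. The deposited counts of reads per gene were made by the authors with Trimmomatic, STAR and featureCounts against RefSeq genes of Rn6 and are not normalized. Samples were grouped by the labels into region, layer and age. Genes passing the filterByExpr rule of edgeR 4.0.16 (12521 of 17260) were fitted in R 4.3.3 by the edgeR quasi-likelihood test with TMM factors, 16 group means and no block, with Benjamini-Hochberg adjustment and a threshold of 0.05. Levels were put on a log2 CPM scale after adding a prior count of 2. Ratios, with 0.5 added to each count, were compared by an exact two-sided permutation test. The genes named beside the members are, for each list and comparison, those of largest LFC past the test in each direction, and up to 3 of highest r; a withheld item is not reported here. Alternatives were DESeq2, limma voom with quantile normalization, other size factors and filters, replicate blocks, summed counts, single regions and each replicate left out; leaving out libraries that stand apart was added after the data were seen. The fit was tested on simulated data. Promoter windows are RefSeq sequences of GRCr8. The members and lists were chosen with earlier results of these data known. Libraries held 3894334 to 11439143 counts.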

Additional observations from a re-analysis of the deposited data

Results flagged for a closer look

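In groups of 4 or 5 libraries a single library stood far from the rest of its group, by the critical value of Dixon's test, in 17 of 120 cases; chance flags about 1 in 20. Of these, 6 were in LEC LDeep P45 replicate 4, with log2 CPM values of 11.14 for Shank1, 9.20 for Shank3, 10.32 for Camk2a, 10.12 for Dlg4 and 8.53 for Dlg3, all above their group, and 7.21 for Homer1, below it. MEC LDeep P2 replicate 4 was high for Shank1 (10.31) and Shank3 (8.48). MEC LII P2 replicate 1, which lacks most excitatory markers, was high for Dlg4 (9.11).

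The other cases were low values of Dlg1 in MEC LDeep P9 replicate 4 (5.49), Dlg4 in MEC LII P9 replicate 4 (8.87) and Shank2 in MEC LII P2 replicate 3 (5.37). High values were found for Shank1 (8.52) and Shank2 (6.50) in MEC LII P9 replicate 2, for Shank2 in LEC LII P2 replicate 4 (6.13) and LEC LDeep P2 replicate 2 (6.02), and for Camk2a in MEC LII P45 replicate 3 (9.03). The age change of Dlg3 differed between MEC and LEC by an LFC of -0.36 in the interaction test.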

How the results depend on the processing

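Counts of members called between younger and older animals, from P2 to P9, from P9 to P23 and in the region by age test stayed within 1.5 times under every alternative run. With limma voom and quantile normalization Camk2b turned to -0.19 over all tissues, -0.19 in MEC LII and -0.17 in LEC LDeep. Shank1 between layers at P45 in the LEC turned to 1.38 without both libraries of wide spread, 1.38 without all 3 and 1.30 without P45 replicate 4 (-0.89 to 1.30 leaving out single replicates). From P23 to P45 the count went from 1 to 0 with a random replicate block and with summed counts (0 to 1 leaving out single replicates). Between layers in the MEC it went from 3 to 5 with voom and quantile normalization, 5 with a fixed and 6 with a random replicate block, and 7 without both or all 3 libraries (2 to 6 leaving out single replicates). In the LEC it went from 3 to 6 without both or all 3. Between regions in LII it went from 0 to 2 with the fixed and 1 with the random block, 1 without both and 2 without all 3 libraries (0 to 1 leaving out single replicates). At single ages it went from 5 to 3 with DESeq2, RLE size factors, no filter, at least 10 counts or the region alone, 2 with voom, and 15 without both or all 3 (2 to 13 leaving out single replicates). The Shank3 to Shank2 rise in LEC LDeep was 0.36 by medians and 0.23 to 0.40 leaving out single replicates, where it did not pass in 9 of 16 settings. Apart from the left-out libraries, the cause was not tested. Samples of the same age and replicate number correlated at a mean r of 0.134 over 96 pairs, with 55 over 0.1, against -0.043 for other numbers of the same age, and 42 of 64 samples were closest to their own number. This is a hint of pairing. Not every pair was over 0.1, and the sources name a shared animal by number only for other (miRNA) samples, so the block was kept as an alternative. With the fixed block the calls gained were Camk2a and Homer1 between layers in the MEC, Camk2a in the LEC, Dlg1 and Homer1 between regions in LII, and in the LEC at single ages Camk2a at P2 and Dlg3 at P23; none was lost.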
